A study of Mus musculus with 6 samples.

Results

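The genes described here were 21 integrin subunits, the 2 discoidin collagen receptors and 18 genes of the focal adhesion plaque, 41 genes of the 53465 in the count table. They were listed by name, as integrin alpha and beta chains, collagen receptors and plaque proteins, with earlier results of these data known. RNA sequencing compared 4T1 parental (P) cells with 4T1 axitinib-resistant (AxR) cells, with 3 libraries of each line. The 4T1 line comes from a mammary carcinoma of the mouse and spreads spontaneously in Balb/c mice. AxR cells were derived from a metastasis in mice given axitinib, an inhibitor of VEGF receptor tyrosine kinases, at 100 mg/kg/day, and are represented by a single line. By the treatment labels AxR cells were grown in 0.5 μM axitinib for more than 2 months and P cells carried no treatment. The paper's results call the P cells vehicle-treated. The growth label, however, names 0.5 μM axitinib for all 6 samples, so the exposure of the P cells to drug during culture is not settled by the labels. Drug in the medium and the derivation of the line cannot be told apart in this design. The sources do not say whether the 3 libraries of a line came from separate cultures, so p values measure the spread between these libraries, which may be technical.

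Integrins are receptors made of an alpha and a beta chain that span the cell membrane, bind matrix proteins such as collagen, laminin and fibronectin outside the cell, and gather the focal adhesion plaque inside it. Talins and kindlins bind the tail of the beta chain and switch the receptor on. The complex of ILK, PINCH and parvin, and the linkers vinculin, zyxin and tensin, join the tail to actin, while FAK and PYK2, paxillin and p130Cas carry the signal onward. The discoidin receptors are tyrosine kinases that bind collagen without an integrin.

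The estimated counts of a library summed to between 15495260 and 17294525. Of the 41 genes, 36 had enough counts to be tested among 13550 genes. The other 5 were Itga4, with 0 counts in every library, Itga9, Itga11 and Parvg, with at most 1 count in a library, and Itga2b, with at most 13. A count of 3 in a library was taken as the floor of detection, which was at most 0.196 counts per 1000000 counts of a library after normalization (CPM). A floor of this kind covers counting error only. Of the 11 epithelial marker genes listed 10 were tested, and the list summed to between 2196 and 2424 CPM in P and between 3254 and 3425 CPM in AxR libraries, with Krt5 at 0. Of these 10 markers 6 were higher in AxR cells and 4 lower, among them Krt7, with a log2 fold change of 0.96, and Cldn7, with −3.43. The 8 fibroblast, 6 endothelial, 7 leukocyte and 5 lung epithelial markers summed to at most 1.28 CPM in any library. In bulk RNA, fewer cells that express a gene and less of its RNA per cell cannot be told apart.

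In edgeR's quasi-likelihood test, with p values adjusted over all 13550 genes by the Benjamini-Hochberg method, 11 of the 36 tested genes were higher in AxR cells, 15 were lower and 10 did not pass an adjusted p of 0.05. Much of the transcriptome differed between the lines: 32.8% of all tested genes were higher, 30.8% were lower and 63.5% passed in either direction, so 26 of 36, or 72.2%, was near the background. The libraries of the lines did not overlap for 26 of the 36 genes, against 68.3% of all tested genes. A log2 fold change of at least 1 was seen for 4 genes that rose, Itga10, Itgb2, Lims2 and Tns1, against 7.99% of all tested genes. Only Itga2 and Parvb among the 36 fell by as much, against 4.72% of all tested genes. Lims2 and Tns1, with at most 7 and 8 counts in a P library, passed the count filter only through their AxR libraries. Parvb passed it only through its P libraries. The median log2 fold change of the 36 genes was −0.07, and that of all tested genes 0.01. The integrin chains were evenly split, with 5 higher, 5 lower and 7 not called of 17 tested. Of the 17 tested plaque genes, 5 were higher, 10 were lower and 2 were not called, with a median of −0.25.

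**Figure D1:**
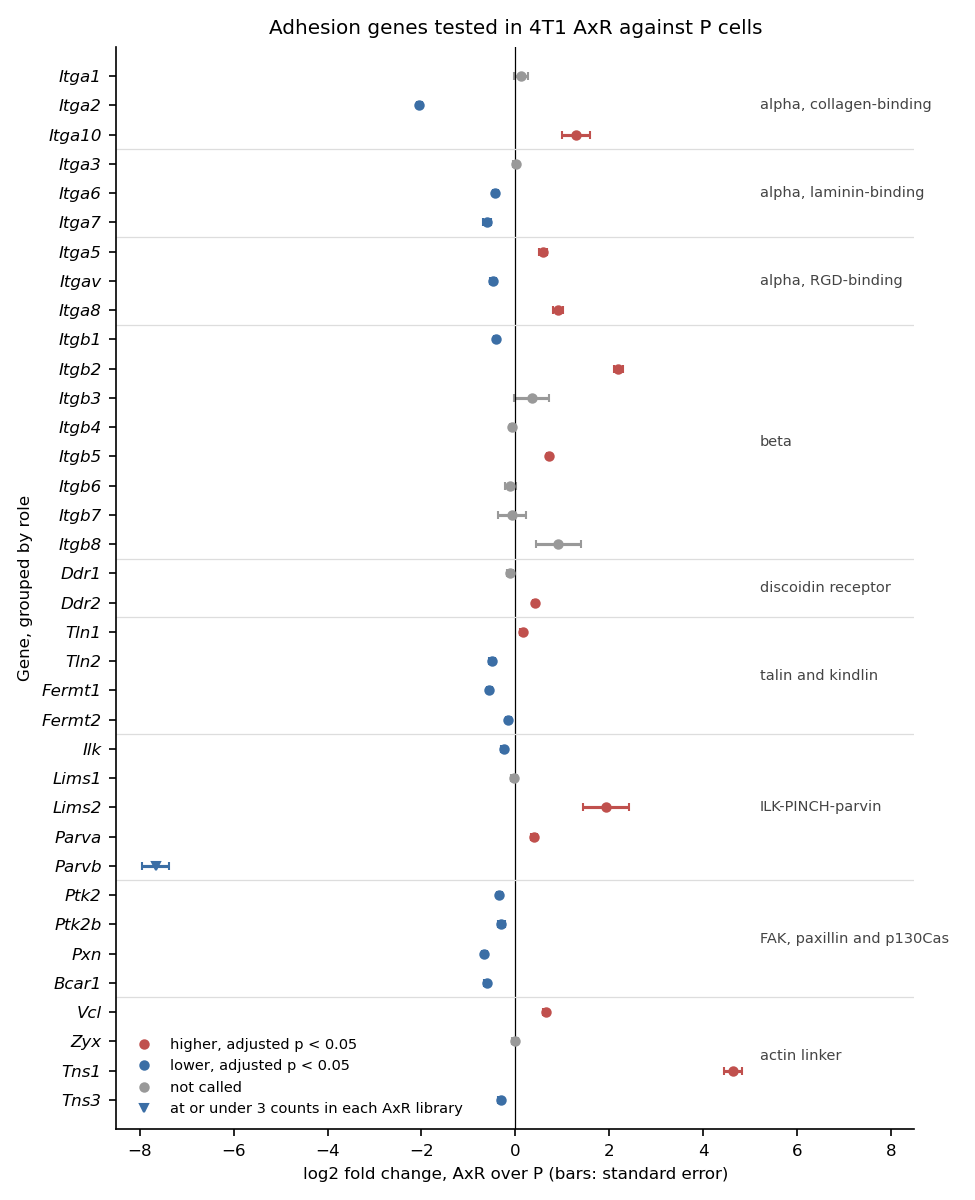
Log2 fold changes (AxR over P) of the 36 tested integrin, discoidin receptor and focal adhesion genes, from edgeR's quasi-likelihood fit with bars of 1 standard error, coloured by call at an adjusted p of 0.05. Tns1 and Itgb2 stand highest, Parvb and Itga2 lowest, and the fitted value of Parvb, drawn as a triangle, is no bound because its AxR libraries held at most 3 counts.

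Of the collagen-binding alpha chains Itga2, which made up nearly all of their transcripts, fell, Itga10 rose from a low level and Itga1 was not called. Itga2, the alpha chain of the main collagen receptor of epithelial cells and platelets (ENSMUSG00000015533.9, GRCm38, chr13:114833081-114932100, minus strand), had 536, 515 and 525 CPM in P replicates 1 to 3. The AxR libraries had 130, 127 and 124 CPM. Every AxR library was far under every P library, and expression fell 4.13-fold (log2 fold change −2.05 ± 0.05 SE, adjusted p = 7.53e-14). Its nearest tested neighbours did not fall as far: Mocs2, 0.806 kb away, had a log2 fold change of −0.37, and Itga1, 21 kb away on the other side, had 0.12. Fst, encoding follistatin and 374.1 kb away, had −2.83, and Ndufs4 beyond it −0.25. On the side of Itga1, Pelo had −0.88 and Parp8 −0.61. Of these neighbours only Itga1 was not called lower. The median over the 555 tested genes of chromosome 13 was −0.27.

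Itga2 and Parvb were the 2 genes of the set that fell by a log2 fold change of more than 1, and the 250 bases before their annotated starts are shown as the sequence next to the start of each of these transcripts. RefSeq (GRCm38.p6) gave a window for 30 of the 41 genes. These sequences are written 5′ to 3′ on the strand of the gene, with every CG dinucleotide in capitals. The Itga2 window (chr13:114932101-114932350, minus strand) held 12 CG and the Parvb window (chr15:84231793-84232042, plus strand) 15.
Itga2: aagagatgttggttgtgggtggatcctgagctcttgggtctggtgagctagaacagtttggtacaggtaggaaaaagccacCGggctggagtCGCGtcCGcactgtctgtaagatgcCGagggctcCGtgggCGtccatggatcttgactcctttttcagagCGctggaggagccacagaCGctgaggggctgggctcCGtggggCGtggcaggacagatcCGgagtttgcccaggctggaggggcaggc
Parvb: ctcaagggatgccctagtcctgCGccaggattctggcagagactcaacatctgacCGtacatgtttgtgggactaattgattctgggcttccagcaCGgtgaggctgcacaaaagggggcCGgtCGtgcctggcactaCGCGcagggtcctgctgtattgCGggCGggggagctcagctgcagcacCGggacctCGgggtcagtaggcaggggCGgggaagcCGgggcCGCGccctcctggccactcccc
Of 32851 RefSeq windows of this length, 33.5% held at least 12 CG and 27.3% at least 15, and the median was 6. The RNA data carry no measure of methylation or factor binding at these windows.

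The other collagen-binding chains were rare. Itga1, which prefers basement membrane collagen, had 6.38, 6.005 and 6.26 CPM in P and 6.22, 8.29 and 5.75 CPM in AxR libraries. Its lines overlapped, and the change of 0.12 ± 0.15 (SE) did not pass (adjusted p = 0.514). Itga10, first known from cartilage, had 1.03, 1.33 and 0.587 CPM in P and 1.97, 3.00 and 2.33 CPM in AxR libraries. It rose by 1.28 ± 0.30 on the log2 scale (adjusted p = 0.00152) from a low level, and shares 1739 exon bases with the gene model Gm42957 on the same strand, which was assigned at most 6.36 counts. Per kilobase of exon, the 4 collagen-binding chains together had 74.2 ± 1.45 CPM in P and 18.7 ± 0.433 CPM in AxR cells (SD, n = 3), and Itga2 made up 99.3% of them in P and 95.5% in AxR cells.

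Of the laminin-binding chains, Itga6 and Itga7 fell and the most abundant, Itga3, was not called. Itga3, partner of Itgb1 in the receptor for the laminin of epithelial basement membranes, had 1440, 1592 and 1445 CPM in P and 1499, 1515 and 1487 CPM in AxR libraries. The AxR values lay within the range of the P values, with a log2 fold change of 0.01 ± 0.05 (SE, adjusted p = 0.90). Itga6, which pairs with Itgb1 or with Itgb4 of hemidesmosomes, had 273, 280 and 278 CPM in P and 215, 210 and 193 CPM in AxR libraries. It fell by 0.43 ± 0.05 on the log2 scale (adjusted p = 2.91e-06). Itga7, the laminin receptor chain of muscle, had 21.8, 24.2 and 22.2 CPM in P and 15.6, 14.4 and 14.8 CPM in AxR libraries. It fell by 0.61 ± 0.08 (adjusted p = 9.68e-06), with no overlap between the lines. Summed per kilobase, the 3 chains had 295 ± 15.5 CPM in P and 287 ± 3.43 CPM in AxR cells (SD, n = 3), and these sums overlapped.

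Among the chains that bind the RGD motif of fibronectin and vitronectin, Itgav fell while Itga5 and Itga8 rose. Itgav, the partner of several beta chains, had 435, 400 and 427 CPM in P and 326, 308 and 276 CPM in AxR libraries, and fell by 0.47 ± 0.06 on the log2 scale (adjusted p = 5.65e-06). Itga5, the alpha chain of the classical fibronectin receptor, had 27.8, 32.4 and 27.6 CPM in P and 44.6, 47.6 and 39.7 CPM in AxR libraries. Its lines did not overlap, and it rose by 0.58 ± 0.08 (adjusted p = 2.29e-05). Itga8, known as a receptor for nephronectin, had 11.3, 10.6 and 11.7 CPM in P and 19.2, 24.1 and 19.9 CPM in AxR libraries. It rose by 0.91 ± 0.10 (adjusted p = 1.59e-06). Itgav still made up most of the RGD-binding transcripts per kilobase, 83.8% in P and 70.4% in AxR cells. The share of Itga5 went from 12.7% to 22.2% and that of Itga8 from 3.25% to 7.14%. With the length of the longest transcript, Itgav made up 87.2% and 75.8%, Itga5 9.73% and 17.6%, and Itga8 2.82% and 6.40%.

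Of the 8 beta chains, Itgb2 and Itgb5 were higher in AxR cells, Itgb1 was lower and the other 5 were not called. Itgb1, the chain shared by most matrix receptors, had 1776, 1783 and 1805 CPM in P and 1407, 1305 and 1314 CPM in AxR libraries. It fell by 0.41 ± 0.05 on the log2 scale (adjusted p = 1.39e-06), and still ranked first of the 41 genes per kilobase in both lines. Itgb5, which pairs with Itgav to bind vitronectin, had 118, 120 and 119 CPM in P and 193, 198 and 195 CPM in AxR libraries. The 1.64-fold rise (log2 fold change 0.72 ± 0.05, adjusted p = 4.58e-09) ran against a median of −0.32 over the tested genes of chromosome 16.

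Itgb2, the beta chain of the leukocyte integrins (ENSMUSG00000000290.13, chr10:77530252-77565708, plus strand), rose 4.58-fold. It had 18.3, 24.2 and 19.5 CPM in P and 88.5, 103 and 92.7 CPM in AxR libraries, with a log2 fold change of 2.20 ± 0.09 (adjusted p = 3.22e-10). The alpha chains known to pair with it were at the floor: Itgal and Itgax had at most 1 count in any library, and Itgam and Itgad at most 2. Itgae, a partner of Itgb7, had at most 15 counts. The 7 leukocyte markers summed to between 0.065 and 0.365 CPM in P and between 0.127 and 0.341 CPM in AxR libraries, with Tyrobp, Fcer1g and Cd3e among those at 0. The 6 platelet markers, with Pf4 at 0, summed to between 0.808 and 1.28 CPM in P and between 1.71 and 2.29 CPM in AxR libraries. Of the 2 that were tested, Ppbp was higher in AxR cells (adjusted p = 2.52e-05 in edgeR's quasi-likelihood test) and Gp1ba was not called. Ppbp had 0, 1 and 2 counts in P, under the floor, and 16, 16 and 18 in AxR libraries. The flanking genes Fam207a and Pttg1ip had log2 fold changes of 0.49 and 0.52, and the median over the 670 tested genes of chromosome 10 was 0.25.

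The remaining beta chains did not pass the test. Itgb4, the hemidesmosome chain, had 127, 138 and 131 CPM in P and 118, 128 and 133 CPM in AxR libraries, with a log2 fold change of −0.06 ± 0.06 (adjusted p = 0.360). Itgb3, the partner of Itgav on endothelium and of Itga2b on platelets, had 0.729, 0.404 and 0.913 CPM in P and 1.02, 0.893 and 0.683 CPM in AxR libraries (log2 fold change 0.35 ± 0.37, adjusted p = 0.432). The 4 tested partners of Itgav other than Itgb1 thus differed widely in level, and Itgb3 and Itgb8 lay near the floor. Itgb6, an epithelial chain that activates latent TGF-beta, had a log2 fold change of −0.11 ± 0.12 (adjusted p = 0.451) at 8.41 CPM in P, and Itgb7, a lymphocyte chain, −0.07 ± 0.30 (adjusted p = 0.854) at 1.61 CPM. Itgb8, which also activates latent TGF-beta, had 0.243, 0.231 and 0.848 CPM in P and 0.699, 1.02 and 0.740 CPM in AxR libraries. Its log2 fold change of 0.91 ± 0.47 did not pass (adjusted p = 0.102), but was 1.76 without P replicate 3 (adjusted p = 0.00863).

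**Figure D2:**
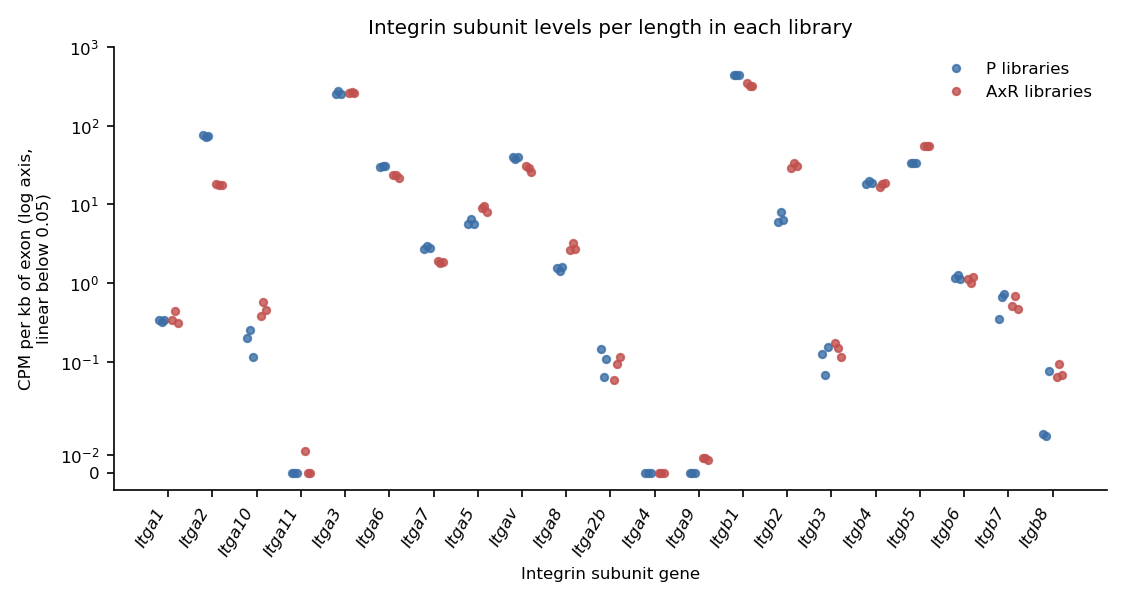
Levels of the integrin chains in CPM per kilobase of exon on a log axis that is linear below 0.05, with 1 point for each of the 3 P and 3 AxR libraries. Itgb1 and Itga3 are the 2 highest chains in both lines, Itga2 falls from 73.6 to 17.8, and Itgb2 rises from 6.77 to 31.1.

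Per kilobase, Itga2 lost share and Itga3 gained share among the chains that pair with Itgb1. The level of Itga3 itself was 261 CPM per kilobase in P and 263 in AxR cells and was not called, so its share rose as the total fell. These shares and sums were chosen after the values were seen. The 12 alpha chains that can pair with Itgb1, Itgav among them, summed to 416 ± 13.2 CPM per kilobase in P and 346 ± 6.81 in AxR cells (SD, n = 3), and Itgb1 itself to 438 and 329. Their ratio was 0.949 ± 0.033 in P and 1.05 ± 0.042 in AxR cells, without overlap between the lines. By summed exon length alpha and beta transcripts thus stood at nearly equal levels, and no other length was tried for this ratio. Itga3 made up 61.7%, 64.7% and 62.1% of these alpha transcripts in P and 75.2%, 75.6% and 77.0% in AxR libraries. Itga2 made up 18.4%, 16.8% and 18.1% in P and 5.22%, 5.09% and 5.14% in AxR libraries. The lines did not overlap for either share. Itga6 went from 7.39% to 6.59% and Itga5 from 1.43% to 2.57%, while the share of Itgav, 9.43% in P and 8.15% in AxR cells, overlapped between the lines.

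For receptor pairs, Itgb1 transcripts per kilobase were 5.95 times those of Itga2 in P and 18.4 times in AxR cells, a log2 change in the Itga2 to Itgb1 ratio of −1.63. The ratio of Itga3 to Itgb1 rose from 0.596 to 0.80, with Itgb1 lower and Itga3 not called. For Itga6 and Itgav, the ratio to Itgb1 changed by −0.02 and −0.06 on the log2 scale, and the libraries of the lines overlapped. Itga6 was 1.64 times Itgb4 in P and 1.27 times in AxR cells, a change of −0.37 on the log2 scale. Itgav and Itgb5, which form a receptor for vitronectin, moved in opposite directions: Itgav was 1.17 times Itgb5 in P but 0.512 times in AxR cells, a change of −1.19. Among the beta chains that pair with Itgav, Itgb5 made up 7.06%, 7.15% and 6.997% in P and 13.6%, 14.8% and 14.5% in AxR libraries. With 3 libraries against 3, an exact two-sided permutation test cannot give a p under 0.1, which is the value of every ratio here whose lines did not overlap. The ratios of receptor chains given here use the summed exon length, and no other length was tried for them. Levels of the receptors at the cell surface were not measured.

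Of the discoidin receptors, Ddr2 rose and Ddr1 did not pass. Ddr2, the receptor for fibrillar collagen that is best known from mesenchymal cells, had 414, 441 and 423 CPM in P and 568, 554 and 582 CPM in AxR libraries. It rose 1.33-fold (log2 fold change 0.42 ± 0.05, adjusted p = 1.44e-06), on a chromosome whose tested genes had a median of −0.29. Ddr1, the receptor best known from epithelium, had 35.8, 35.8 and 35.9 CPM in P and 31.9, 35.3 and 32.5 CPM in AxR libraries. Its lines did not overlap, but the log2 fold change of −0.11 ± 0.07 did not pass (adjusted p = 0.173). Per kilobase, Ddr2 was 6.12 times Ddr1 in P and 8.81 times in AxR cells. The summed level of both receptors went from 53.5 ± 1.46 to 68.3 ± 1.22 CPM per kilobase (SD, n = 3), while that of the collagen-binding alpha chains fell as given above. The 8 fibroblast markers, with Lum, Thy1 and Col3a1 at 0, summed to between 0.577 and 0.973 CPM in P and between 0.569 and 1.28 CPM in AxR libraries.

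Of the 4 talin and kindlin genes, which act at the integrin tail, 3 fell and 1 rose, against 30.8% and 32.8% of all tested genes, and the calls of Tln1 and Fermt2 each depended on single libraries. Tln1, the talin of most tissues, had 400, 449 and 401 CPM in P and 473, 446 and 475 CPM in AxR libraries. The lines overlapped, and its rise of 0.16 ± 0.05 on the log2 scale (adjusted p = 0.0195) did not pass without P replicate 1 (adjusted p = 0.0882) or P replicate 3 (adjusted p = 0.0971). Tln2, the paralog typical of muscle and brain, had 59.9, 61.8 and 61.7 CPM in P and 44.6, 43.6 and 42.1 CPM in AxR libraries. It fell by 0.49 ± 0.06 (adjusted p = 2.58e-06), and Tln1 per Tln2 went from 12.7 to 20.02 per kilobase.

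Fermt1, the kindlin of epithelia, had 133, 134 and 138 CPM in P and 86.4, 91.3 and 97.5 CPM in AxR libraries, and fell by 0.56 ± 0.06 on the log2 scale (adjusted p = 4.62e-07). Fermt2, the kindlin of most other tissues, had 105, 102 and 105 CPM in P and 96.7, 90.5 and 93.6 CPM in AxR libraries. Its smaller decrease of 0.15 ± 0.05 (adjusted p = 0.0157) did not pass without P replicate 1 (adjusted p = 0.0583), P replicate 3 (adjusted p = 0.0676) or AxR replicate 2 (adjusted p = 0.0847). Both kindlins together went from 43.8 ± 0.682 to 34.1 ± 0.90 CPM per kilobase (SD, n = 3). Fermt1 was 54.1% of the kindlin transcripts in P and 47.1% in AxR cells, although with the length of the longest transcript Fermt2 was the higher of the pair in both lines, at 55.1% and 61.9%.

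In the complex of ILK, PINCH and parvin, Parvb was lost and Parva rose. Parvb, beta-parvin (ENSMUSG00000022438.6, GRCm38, chr15:84232043-84315688, plus strand), had 18.8, 19.0 and 16.3 CPM in P libraries, from 310, 329 and 250 counts. The AxR libraries had 1, 3 and 0 counts, at or under the floor, so Parvb was at least 92.3-fold lower in AxR cells (adjusted p = 8.39e-12). Its promoter window is printed above. Parvg, gamma-parvin of blood cells, begins just after Parvb on the same strand (chr15:84324026-84342978) and had at most 1 count in any library. Samm50, 14.8 kb before Parvb, had 57.4 CPM in P and 59.2 CPM in AxR cells (log2 fold change 0.04, adjusted p = 0.513). Prr5, the first tested gene after it, 353.9 kb away, had a log2 fold change of −0.22 (adjusted p = 0.254), and the median over the 527 tested genes of chromosome 15 was 0.12.

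Parva, alpha-parvin (ENSMUSG00000030770.15, chr7:112427505-112591692, plus strand), had 115, 117 and 117 CPM in P and 163, 156 and 142 CPM in AxR libraries. It rose 1.32-fold (log2 fold change 0.40 ± 0.06, adjusted p = 1.69e-05), with no overlap between the lines. Per kilobase, Parva was 2.81 times Parvb in P cells and at least 342 times in AxR cells. In P libraries Parvb was 27.4%, 27.1% and 24.2% of parvin transcripts per kilobase. With the length of the longest transcript its mean share in P was 19.3%. The 3 parvins together had 15.6, 15.9 and 15.3 CPM per kilobase in P and 16.1, 15.4 and 14.04 in AxR libraries. These sums overlapped, and their difference of −0.42 CPM per kilobase gave p = 0.7 in an exact permutation test (two-sided, n = 3 per line). The sums depend on the summed exon length used for each gene and were not taken with the longest transcript, so whether the total was kept is not settled.

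The partners of the parvins changed less. Ilk, the pseudokinase that holds the complex together, fell by 0.25 ± 0.06 on the log2 scale (adjusted p = 0.00119), from 118 to 99.1 CPM, and shares 2106 exon bases with Taf10 and 355 with Rrp8 on the other strand. Lims1, encoding PINCH1, had 359, 291 and 359 CPM in P and 324, 328 and 337 CPM in AxR libraries. Its log2 fold change of −0.03 ± 0.07 did not pass (adjusted p = 0.745), but was −0.12 without P replicate 2 (adjusted p = 0.0379). Lims2, encoding PINCH2, had 0.061, 0.404 and 0.196 CPM in P and 0.826, 0.765 and 1.02 CPM in AxR libraries. It rose by 1.93 ± 0.50 (adjusted p = 0.00274), and by 2.73 without P replicate 2, on at most 18 counts a library. Lims1 still made up 99.9% of PINCH transcripts per kilobase in P and 99.6% in AxR cells.

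Of the listed genes that carry the adhesion signal, Ptk2, Ptk2b, Pxn and Bcar1, all 4 fell, against 30.8% of all tested genes, with a median log2 fold change of −0.48. Ptk2, encoding FAK, had 247, 258 and 261 CPM in P and 202, 196 and 207 CPM in AxR libraries (log2 fold change −0.34 ± 0.05, adjusted p = 1.39e-05). Ptk2b, encoding the related kinase PYK2, had 29.2, 32.0 and 32.4 CPM in P and 25.5, 26.1 and 24.3 CPM in AxR libraries (−0.30 ± 0.07, adjusted p = 0.00194). Both kinases fell to a like extent, and Ptk2 was 5.13 times Ptk2b per kilobase in P and 4.98 times in AxR cells, with overlap between the lines.

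Pxn, encoding the scaffold paxillin, had 253, 259 and 250 CPM in P and 145, 160 and 177 CPM in AxR libraries, and fell by 0.66 ± 0.06 on the log2 scale (adjusted p = 3.00e-07). Bcar1, encoding the docking protein p130Cas, had 155, 169 and 156 CPM in P and 101, 106 and 108 CPM in AxR libraries, and fell by 0.61 ± 0.05 (adjusted p = 1.32e-07). Every AxR library lay under every P library for these 4 genes. The medians over the tested genes of their chromosomes, 15, 14, 5 and 8, lay between −0.18 and 0.12.

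Of the actin linkers, Tns1 and Vcl rose, Tns3 fell and Zyx was not called. Tns1, encoding tensin 1 of mature and fibrillar adhesions (ENSMUSG00000055322.15, chr1:73910231-74124449, minus strand), had 0.365, 0.462 and 0.456 CPM in P, from 6, 8 and 7 counts. The AxR libraries had 10.4, 11.4 and 10.5 CPM, from 164, 178 and 184 counts. The 24.7-fold difference (log2 fold change 4.63 ± 0.19, adjusted p = 2.99e-11) was the highest of the 36 tested genes. The first tested genes on its sides, Arpc2 at 111.6 kb and Rpl37a at 1196 kb, had log2 fold changes of −0.56 and 0.21. The next were Aamp, at 0.27, and Pnkd, at −0.16, beyond Arpc2, and Smarcal1, at 0.10, and March4, at 2.62, beyond Rpl37a. The 5 smooth muscle and pericyte markers summed to between 0.130 and 0.182 CPM in P and between 0.383 and 0.796 CPM in AxR libraries, and their part in the Tns1 difference was not tested.

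Tns3, the tensin that was abundant in both lines, had 354, 379 and 369 CPM in P and 294, 297 and 295 CPM in AxR libraries, and fell by 0.32 ± 0.05 on the log2 scale (adjusted p = 2.20e-05). Per kilobase, Tns3 was 1153 times Tns1 in P and 39.2 times in AxR cells. Thus Tns1 reached only 2.48% of the transcripts of this pair in AxR cells, and both together went from 32.9 ± 1.14 to 27.1 ± 0.154 CPM per kilobase (SD, n = 3). Vcl, encoding vinculin, had 126, 129 and 131 CPM in P and 209, 203 and 191 CPM in AxR libraries. It rose 1.56-fold (log2 fold change 0.64 ± 0.05, adjusted p = 3.85e-08). Vcl shares 2090 exon bases with Ap3m1 on the other strand, which had a log2 fold change of 0.23. Zyx, encoding zyxin, had 242 CPM in P and 241 CPM in AxR cells (log2 fold change −0.01 ± 0.06, adjusted p = 0.941).

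**Figure D3:**
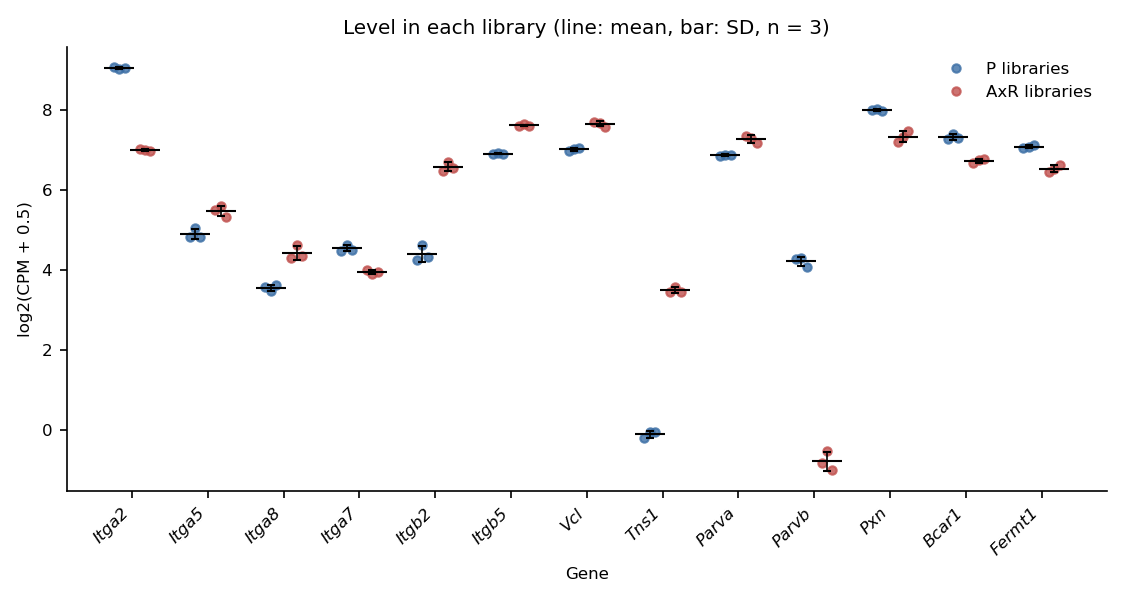
Levels of 13 integrin and focal adhesion genes as log2 of CPM with 0.5 added, with 1 point for each of the 3 P (blue) and 3 AxR (red) libraries, a line at the mean and a bar of 1 SD. All 13 genes drawn are among the 26 of 36 tested genes whose lines do not overlap, against 68.3% of all tested genes. The absence of overlap here thus follows from which genes are drawn and is no result about the set. Tns1 lies lowest in P, at 0.365 to 0.462 CPM, and Parvb lowest in AxR libraries, at 0 to 0.191 CPM.

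Set side by side, 10 of the 12 paralog or partner pairs compared within a library did not overlap between the lines. Of all tested genes taken singly, 68.3% did not overlap, and no share was taken over other pairs of genes, so this count has no background of its own. Each of the 10 had an exact permutation p of 0.1 (two-sided, 0.12 after adjustment over the 12 pairs), the smallest this design allows. The log2 ratio changed most for Parva over Parvb, by 8.13, and Tns1 over Tns3, by 4.88. The first of these rests on 1, 3 and 0 Parvb counts in AxR libraries and was 6.97 with a pseudocount of 2. Itga1 over Itga2 changed by 2.15 and Lims1 over Lims2 by −2.13, and each turned on a single gene of the pair, Itga2 and Lims2. Itga5 over Itgav changed by 1.06 and Tln1 over Tln2 by 0.65, with the called genes moving in opposite directions in both pairs. Smaller shifts were those of Ddr1 over Ddr2, −0.52, Itga3 over Itga6, 0.44, Fermt1 over Fermt2, −0.40, and Itgb1 over Itgb4, −0.35. Ptk2 over Ptk2b, −0.04, and Itgb3 over Itgb5, −0.33, overlapped between the lines (exact permutation p = 0.5 for each).

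**Figure D4:**
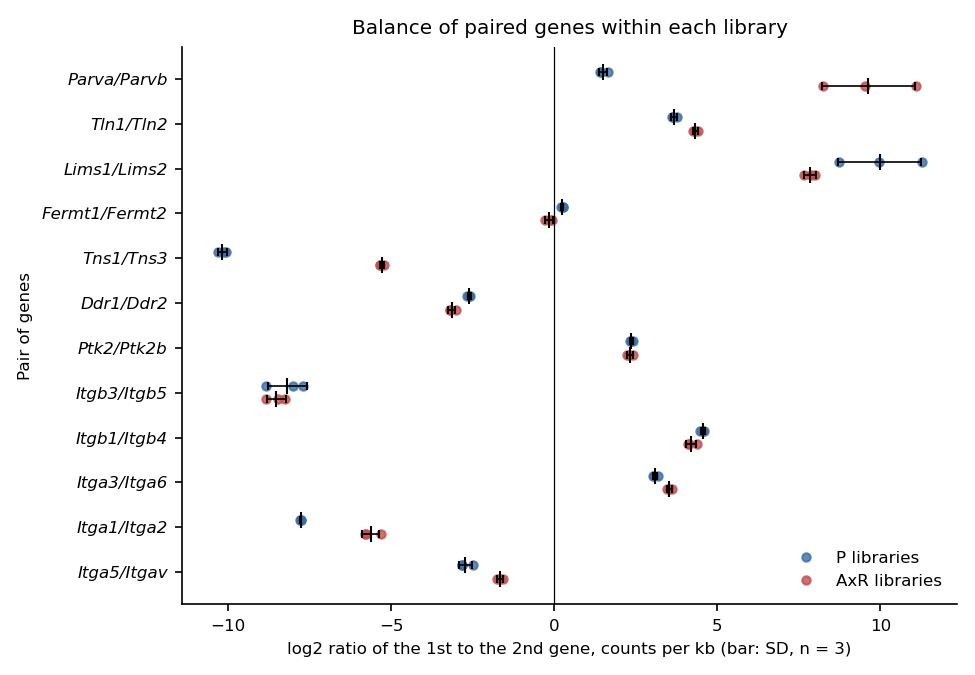
Log2 ratio per kilobase of the 2 genes of each pair in each of the 3 P (blue) and 3 AxR (red) libraries, with the mean and a bar of 1 SD. Ratios moved most for Parva over Parvb, where the AxR points rest on 1, 3 and 0 counts of Parvb, and for Tns1 over Tns3, and overlapped between the lines for Ptk2 over Ptk2b and Itgb3 over Itgb5.

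Other genes of the adhesion pathway moved in both directions. Of 67 other focal adhesion genes, 59 were tested, and 18 were higher, 29 lower and 12 not called in AxR cells, and the median of their log2 fold changes was −0.17. The 47 genes called were 79.7% of those tested, against 63.5% of all tested genes. The furthest lower was Cav1, encoding the coat protein of caveolae, which went from 75.8 ± 6.72 to 9.65 ± 1.41 CPM (SD, n = 3, log2 fold change −2.98). Tes, encoding testin, fell by 1.304 on the log2 scale and Enah, an actin regulator of the Ena/VASP family, by 1.13. On the other side, Sorbs3, encoding the vinculin-binding protein vinexin, went from 1.62 ± 0.182 to 18.2 ± 2.19 CPM (SD, n = 3, log2 fold change 3.49). Kank1, which binds talin, rose by 1.32, Nedd9, a paralog of Bcar1, by 1.12 and Rap1a, a GTPase that activates integrins, by 1.05. Nedd9 and Bcar1 thus changed in opposite directions, though Nedd9 at 37.4 CPM in AxR cells was the less abundant.

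All 8 genes of hemidesmosomes and of the tetraspanins that accompany integrins were tested, and 2 were higher, 3 lower and 3 not called, so that 62.5% were called against 63.5% of all tested genes. Cd81 went from 36.0 ± 0.968 to 99.2 ± 6.58 CPM (SD, n = 3, log2 fold change 1.46), and Cd9 rose by 0.18. Dst, encoding dystonin, which anchors Itgb4 to keratin, fell by 0.41 and Cd82 by 0.30. The fifth gene called, Col17a1 of the hemidesmosome, was under 10 CPM in both lines and fell by 1.23.

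Of 41 genes for matrix ligands of these receptors, 28 were tested, and 12 were higher, 11 lower and 5 not called, with a median of −0.01. The share called was 82.1%, against 63.5% of all tested genes. A log2 fold change of at least 1 was reached by 8 of those that rose and 1 of those that fell, against 7.99% and 4.72% of all tested genes. Postn, encoding periostin, a ligand of Itgav with Itgb3 or Itgb5, went from 9.56 ± 1.21 to 270.2 ± 13.2 CPM (SD, n = 3, log2 fold change 4.82), and Col6a1, a chain of collagen VI, from 2.12 ± 0.234 to 48.3 ± 1.86 CPM (log2 fold change 4.51). Thbs1, encoding thrombospondin 1, rose by 2.06 and Spp1, encoding the RGD protein osteopontin, by 1.64. Tnc, encoding tenascin C, fell by 1.62, Lamb1, a laminin beta chain, by 0.91, Tgfb1 by 0.86 and Col5a1 by 0.73. All genes named in these 3 lists passed an adjusted p of 0.05 in edgeR's quasi-likelihood test.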

How the data were processed

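Per the labels and the study's methods, the authors prepared poly(A)-selected, stranded mRNA libraries, checked the reads with FastQC 0.11.5, aligned them to GRCm38 with STAR 2.6.0a and estimated gene counts with RSEM 1.3.1. The authors deposited each estimated count as RSEM gave it, before filtering or scaling. Fractional entries made up 10.3% to 10.7% of a library. RSEM shares reads among overlapping or near-identical genes, which makes low values of such genes uncertain, and its strand setting is not given in the sources used here.

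Counts were rounded, filtered with filterByExpr of edgeR 4.0.16 in R 4.3.3, scaled by the upper quartile and tested with glmQLFit and glmQLFTest with line as the only term. The 13550 tested genes held 99.9% of the counts. Standard errors are the unshrunk log2 fold change over the root of F. CPM were taken over the library size times its upper quartile factor. Levels per kilobase divide CPM by the summed exon length in GENCODE, in which 53274 of 53465 identifiers were found. Ratios within a library had 0.5 counts added, and were tested with exact permutation tests in scipy 1.17.1. Depth set a floor of 3 counts, between 0.171 and 0.196 CPM in a library. The test was tried on simulated data, with 200 changed genes in each of 3 draws.

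Samples were grouped by the label of the line. No library was left out. No 2 libraries were alike within sampling noise. Members and gene lists were chosen with earlier results of these data known. Every member is named. From the other lists the text names the 4 highest and 4 lowest log2 fold changes with an adjusted p under 0.05 and a mean of at least 10 CPM in either line, and Col17a1 in addition, chosen after its value was seen. Some items that these rules name are not reported here. Neighbouring and overlapping genes are named by position. Alternatives were TMM, library size only, DESeq2 1.42.0, limma-voom (limma 3.58.1), other count filters and the replicate number as a block. Each library was also left out, and the chromosome median subtracted. For the ratios of the 12 paralog or partner pairs, another transcript length or pseudocount was used. For the shares within a set the alternatives used were added after seeing the data.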

Additional observations from a re-analysis of the deposited data

How the results depend on the processing

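The number of members called stayed between 8 and 12 higher and between 14 and 15 lower with TMM, library size only, DESeq2, limma-voom, either count filter and the replicate block, and between 10 and 11 higher and 14 and 16 lower with each library left out. With at least 10 counts required in every library, the called members Itga10, Lims2, Tns1 and Parvb were not tested. A minimum absolute log2 fold change of 1 left 1083 higher and 640 lower genes of all tested, 4 and 2 members, 5 and 5 other focal adhesion genes, and 1 lower ligand gene. The median log2 fold change of the members was −0.11 with at least 10 counts in every library, −0.13 after subtraction of the chromosome medians, and between −0.0954 and −0.0112 with each library left out. Of the members that were not called, Itga1, Itga3, Itgb7, Lims1 and Zyx changed sign around 0. Ddr1, Itgb3, Itgb4, Itgb6 and Itgb8 kept their sign in every fit that tested them. Itga3 was at −0.00396 with TMM, −0.014 with library size only and −0.00504 with DESeq2, and between −0.0134 and 0.0582 with each library left out. On leaving out a library Itga1 ranged from −0.0525 to 0.226, Itgb7 from −0.327 to 0.118, Lims1 from −0.122 to 0.0253 and Zyx from −0.0771 to 0.0431. Calls of single members changed for Tln1, Fermt2, Lims1 and Itgb8 on leaving out a library, as given above, and Itgb8 also passed with limma-voom (log2 fold change 1.10, adjusted p = 0.0454). The cause was not tested. With the length of the longest transcript, the log2 ratio of Fermt1 to Fermt2 in P was −0.30 in place of 0.24, by the construction of the length. Other values without a test moved by more than the replicate spread in 24 cases for single members, 19 for ratios and 18 for shares, with no change of direction. Depth limits Lims2, Itgb3, Itgb8 and Itga10, which had few counts.

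Replicate numbers did not pair the libraries: deviations from the line means correlated at −0.02, −0.01 and −0.02 between libraries with the same number. With the number as a block, 4304 genes were higher and 4023 lower among all tested, and 11 members were higher and 15 lower, as without it.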
